A study of Mus musculus with 15 samples.

Results

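The comparison described here sets the later hours after aldosterone against the earlier hours in the mouse heart. It used 6 of the 15 arrays of the series: the aldosterone arrays at 0.5, 1 and 2 h formed the early group, and those at 3, 4 and 5 h the late group. Each array measured biotin-labelled RNA from whole heart that was frozen at sacrifice, and each hour was represented by 1 array, so that the hours took the place of replicates (n = 3 per group). The labels name the animals only as mice injected with aldosterone and give neither strain, sex, age nor dose, nor whether an array held 1 animal or several. The control arrays at the same hours were used as the background of the comparison. What the timed controls received is not stated, and only the 0 h control is described as not injected. All values below are log2 levels, that is log2 of the deposited signal plus an offset of 167.8, quantile-normalised over the 15 arrays, and all differences are late minus early on that scale.

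Aldosterone is the steroid hormone of the adrenal cortex that drives sodium retention in the kidney. It binds the mineralocorticoid receptor (Nr3c2), a ligand-activated transcription factor that heart muscle cells also carry, and at higher concentrations it can occupy the related glucocorticoid receptor (Nr3c1). Both receptors act through similar DNA elements and share many targets, among them Sgk1, Fkbp5, Tsc22d3, Per1 and Zbtb16. In kidney such targets respond first, and changes in transport and metabolism follow over hours.

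The arrays differed in RNA quality and in tissue content. The log2 ratio of the 3′ to the 5′ Gapdh control probe sets, which grows as RNA is degraded or shortened, was -0.23 at 0.5 h, 3.31 at 1 h, 3.36 at 2 h, -0.14 at 3 h, 2.17 at 4 h and 1.28 at 5 h. The early and late groups overlapped (2.15 ± 2.06 against 1.10 ± 1.17, SD, n = 3; exact permutation test, two-sided p = 0.6, smallest possible 0.1). The first principal component of the 6 arrays, with 47.1% of their variance, separated the 0.5 and 3 h arrays at -54.2 and -38.7 from the 1 and 2 h arrays at 36.8 and 34.7. The 4 and 5 h arrays lay between them, at 19.4 and 1.9. The 0.5 and 3 h arrays were scanned on 1 day, the 1 and 4 h arrays on a second and the 2 and 5 h arrays on the third, so each day held 1 early and 1 late array. The 0.5 and 3 h arrays also came from another chip lot and another fluidics station than the other aldosterone arrays used here.

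Lung transcripts were high in 1 early array. Sftpc, surfactant protein C, stood at 16.62 at 1 h and between 8.45 and 9.76 on the other 5 arrays. Over the 11 tested lung markers the mean level was 14.02 at 1 h, against a range of 9.70 to 10.20 over the late arrays. The control array at 1 h showed the same markers, with Scgb3a2, a secretoglobin of the airway, at 13.18 there and 14.69 at 1 h of aldosterone. Markers of white fat and atrium also varied between arrays: Car3, abundant in fat, ranged from 8.78 at 5 h to 15.23 at 1 h, and Sln, the atrial sarcolipin, from 12.18 at 5 h to 15.70 at 4 h. The calcium pump Atp2a2, an abundant transcript of heart muscle, lay between 17.97 and 18.11 on all 6 arrays. This level does not measure how much ventricle an array held. In whole tissue, fewer cells of a type and less RNA per cell cannot be told apart. With the Gapdh ratio as a covariate 2 probe sets were called and 1586 had an unadjusted p under 0.05. Values without the 1 h array, chosen after seeing the data, are given for some of the lists that they move and not for all. The part of the other tissues in the differences below was not otherwise tested.

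**Figure D1:**
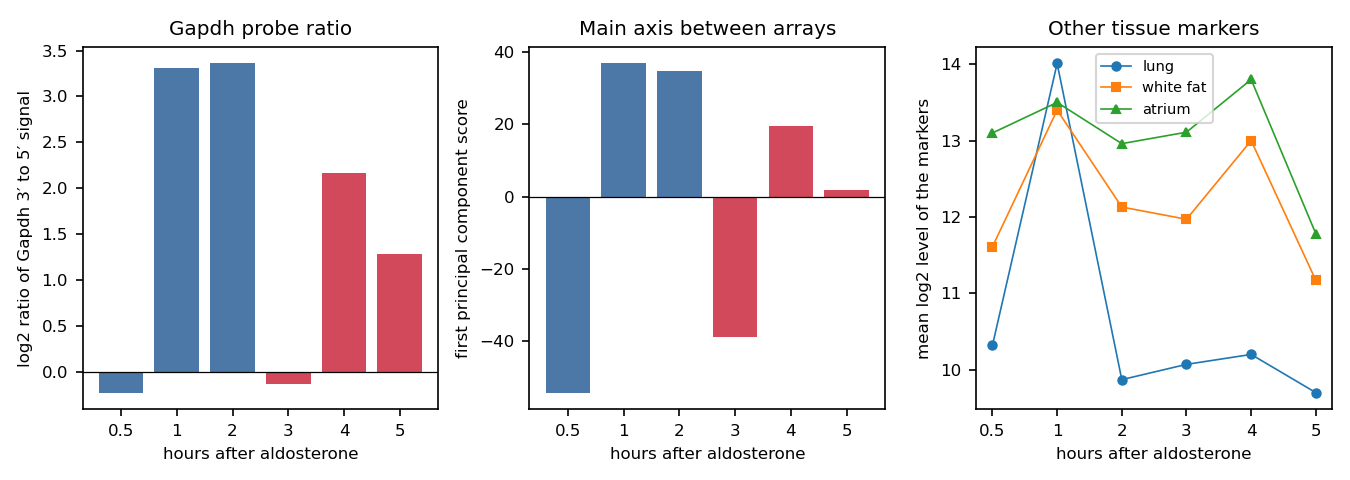
The 6 aldosterone arrays by hour, early in blue and late in red: left, bars of the log2 ratio of 3′ to 5′ Gapdh signal; middle, bars of the first principal component score; right, the mean log2 level of the tested lung, white fat and atrial markers. The 1 and 2 h arrays are highest in the first 2 panels and the 0.5 and 3 h arrays lowest, and the lung line peaks at 1 h at 14.02.

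No probe set passed the test between late and early hours. With limma, 0 of 21329 tested probe sets (0%) had an adjusted p under 0.05 in the aldosterone arm, and the smallest adjusted p was 1. An unadjusted p under 0.05 was reached by 560 probe sets, or 2.63% of those tested. The median standard error of a difference was 0.23, and the 95% interval lay within 2-fold in both directions for 81.1% of the probe sets. The intervals are not adjusted for the number of probe sets tested, so they do not mark what the adjusted test could detect. With 3 arrays a group, even differences whose interval left out 0 were not called. The genes described below did not pass this test, and higher and lower describe the order of the 6 arrays only.

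A second description used overlap: a gene counts as higher when all 3 late arrays lie above all 3 early arrays. With 1 probe set per gene, 428 of 11237 tested genes (3.81%) were higher in this sense and 461 (4.1%) lower. The same hours of the control arm gave 925 genes higher (8.23%) and 560 lower (4.98%). Within scan days, 1478 genes (13.2%) were higher in the late array of all 3 same-day pairs and 1616 (14.4%) lower. The median difference over all tested genes was 0.00 in the aldosterone arm and 0.03 in the control arm. These shares are the background against which the gene lists are read below.

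Among the genes with no overlap and at least 1.5-fold between the groups, the smallest unadjusted p among higher genes belonged to Herpud1, which encodes a membrane protein of the endoplasmic reticulum that is induced by unfolded protein and serves protein degradation. Its early levels were 13.14, 12.90 and 13.42 at 0.5, 1 and 2 h, and its late levels 14.33, 13.92 and 14.35 at 3, 4 and 5 h. The difference was 1.05 ± 0.18 (SE), or 2.07-fold, and the other Herpud1 probe set had 0.70 ± 0.17. All late arrays lay above all early ones on both, and the level at 12 h, 14.01, stayed in the late range. The control arrays had a similar difference for the first probe set, 0.87 ± 0.19, also with no overlap.

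Zbtb16, a zinc finger repressor known as a corticosteroid target, stood at 13.56, 13.59 and 14.73 early and at 15.83, 14.88 and 15.53 late. The 2 h array was already above the first 2, and the late arrays lay above it. The difference was 1.45 ± 0.34, or 2.74-fold, and its other 2 probe sets had 1.88 and 1.36. In the control arm the level went from 13.67 at 0.5 h to 15.59 at 2 h and 15.83 at 3 h, so that the groups overlapped there, with a difference of 0.95 ± 0.39.

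Rbck1, a subunit of the linear ubiquitin ligase that serves NF-κB signalling, was a leading gene whose control arm ran the other way. It stood at 10.74, 10.78 and 10.54 early and 11.49, 11.73 and 11.49 late after aldosterone. The early and late arrays each stayed within a narrow band, with a difference of 0.89 ± 0.18. In the control arm the levels were 10.95, 11.60 and 11.58 early and 11.04, 10.96 and 10.97 late, with a difference of -0.39 ± 0.21. Rusc2, an adaptor of vesicle traffic, was similar, with 0.84 ± 0.18 after aldosterone and -0.11 ± 0.18 in the controls.

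The other leading higher genes included immune and noncoding transcripts. Ccl9, a chemokine of macrophages, had 1.02 ± 0.21 and, on its other probe set, 0.98 ± 0.26. Dio3os, a noncoding RNA antisense to the deiodinase gene Dio3, had 1.47 ± 0.27. Which strand the probe set of Dio3os detects was not checked. The early levels of Dio3os and Ino80e all lay under 9.44, the median of all normalised values, so their differences rest on low signals. Ino80e, a subunit of the INO80 chromatin remodeller, had 1.52 ± 0.30, but its second probe set did not share the direction, and the same held for both other probe sets of Mvb12a and 1 of 2 of Nacc2. The 15 leading higher genes ranged from 1.69-fold to 3.02-fold. Each leading gene is given by its probe set with the smallest p. Of the 15, 6 were also higher with no overlap in the control arm, against 7.65% of all tested probe sets. A positive difference there was found for 11 of the 15, where the median over all genes was 0.03.

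Among the lower genes the smallest p belonged to Shmt1, the cytosolic serine hydroxymethyltransferase of one-carbon metabolism. It stood at 11.45, 12.16 and 11.73 early and 10.65, 10.54 and 10.47 late, a difference of -1.23 ± 0.21. Every late array lay below every early one, while the control levels were scattered from 10.58 to 13.12 with a difference of -0.55 ± 0.52. Marchf10, a ubiquitin ligase of the MARCH family, had the largest difference of the 15 leading lower genes, from 10.68, 10.35 and 10.81 early to 8.22, 8.87 and 9.31 late. That difference was -1.81 ± 0.32, or 3.51-fold, and the 12 h array was back at 10.93. The 3 late levels lay under 9.44, the median of all normalised values, so the fold rests on low signals plus the offset.

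Itga6, the laminin-binding integrin alpha 6 subunit, stood at 13.04, 13.42 and 13.30 early and 12.14, 12.32 and 12.67 late, a difference of -0.88 ± 0.19. Phlda1, a gene induced by growth factor signalling, had -0.71 ± 0.18, and St6galnac3, a sialyltransferase, -1.25 ± 0.24. Lrrc3b, a leucine-rich repeat membrane protein, had 12.67, 12.74 and 12.77 early and 12.14, 12.07 and 12.11 late. Its difference was -0.62 ± 0.14 and the control arm had -0.57 ± 0.16, again with no overlap. Pnmt, the enzyme that makes adrenaline from noradrenaline, had -1.24 ± 0.34 with an early array at 9.61 close to the highest late array at 9.30. Its late levels all lay under 9.44, the median of all normalised values. The 15 leading lower genes ranged from 1.52-fold to 3.51-fold. Of these, 4 were also lower with no overlap in the control arm, against 5.07% of all tested probe sets, and 13 had a negative difference there. In 3 of the 15, Mtss1, Nr3c1 and Gle1, another probe set had the opposite sign.

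**Figure D2:**
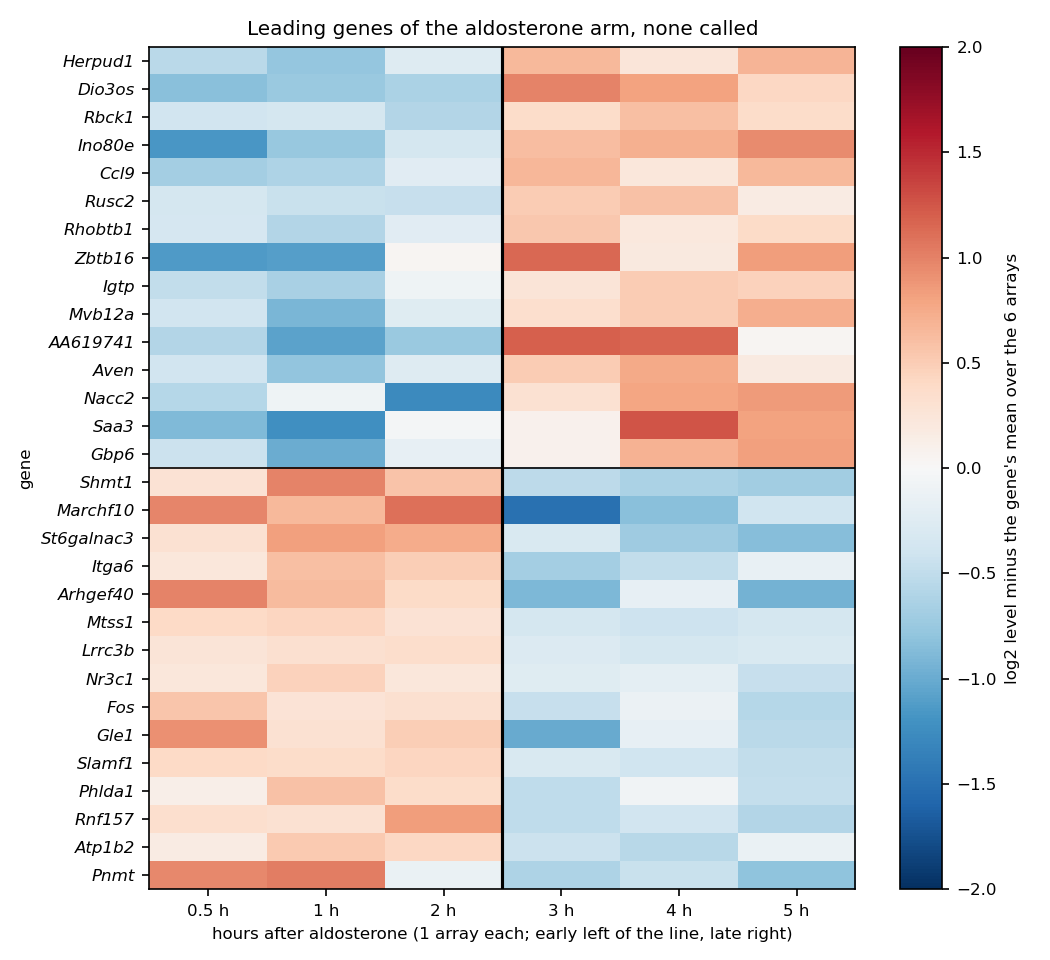
Each row is 1 of the 30 leading genes, 15 higher above the thin line and 15 lower below it, and each column 1 aldosterone array; colour gives the log2 level minus the gene's mean over the 6 arrays, and the thick line parts early from late. All late arrays lie on 1 side of all early arrays in every row because the genes were chosen so, and for Zbtb16 and Saa3 the 2 h array is the highest of the early ones.

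Among the corticosteroid receptors, the glucocorticoid receptor gene Nr3c1 was lower late than early on its brightest probe set. The levels were 13.68, 13.92 and 13.69 early, 13.21, 13.26 and 12.99 late and 13.69 at 12 h. The late arrays lay below the early ones, with a difference of -0.61 ± 0.15, and the 12 h array was at the early level. Its other probe sets had -0.32, 0.07 and -0.20, and in the control arm the brightest one had -0.10 ± 0.25 with overlapping groups. The mineralocorticoid receptor gene Nr3c2 stood at 10.22, 10.91 and 10.96 early and 10.33, 10.79 and 10.63 late. These groups overlapped, and the difference was -0.12 ± 0.25.

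Of the 40 tested corticosteroid targets, none was called, 2 were higher with no overlap (5%, against 3.81% of all genes) and 5 were lower (12.5%, against 4.1%). The median difference was 0.02 in the aldosterone arm and 0.04 in the control arm. Apart from Zbtb16, the higher one was Sult1a1, a sulfotransferase, at 0.34. The lower ones were Sgk1, Ddit4, Errfi1, Adamts1 and Scnn1a. Sgk1, the kinase through which aldosterone retains the epithelial sodium channel at the membrane in kidney, stood at 13.54, 13.85 and 13.81 early and 13.29, 13.39 and 13.42 late. Its difference was -0.37 ± 0.14, and the control arm had the same value, -0.37 ± 0.19, with overlapping groups.

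Errfi1, a feedback inhibitor of the epidermal growth factor receptor, had -0.71 ± 0.24 after aldosterone and -0.22 ± 0.30 in the controls. Its other probe set had -0.24 with overlap after aldosterone, and -0.47 in the controls. Ddit4, a stress-induced inhibitor of mTOR signalling, had -0.65 ± 0.22, with same-day differences of -0.01 for 3 h minus 0.5 h, -0.75 for 4 h minus 1 h and -1.20 for 5 h minus 2 h. Fkbp5, the co-chaperone that tempers the glucocorticoid receptor, reached its level before the late group began. It stood at 11.68, 12.32 and 12.99 early and 12.95, 12.89 and 12.83 late, which gave a difference of 0.56 ± 0.29 with overlap. Klf15, a factor of amino acid and lipid metabolism, had the same difference, 0.56 ± 0.24, and Map3k6, a stress kinase, 0.55 ± 0.33, both with overlapping groups.

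Tsc22d3, which encodes the glucocorticoid-induced leucine zipper, had -0.03 ± 0.16, and Klf9, another hormone-induced factor, 0.10 ± 0.24. The clock gene Per1 had 0.17 ± 0.42, with a range of 10.26 to 11.85 inside the early group alone. The sign of all 3 depended on single arrays. Pdk4, the kinase that turns off pyruvate dehydrogenase, had 0.50 ± 0.24, with its highest level, 16.78, at 5 h. For each of these 4 genes the early and late arrays overlapped.

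Of 13 tested genes of sodium transport and its hormone receptors, 5 were lower with no overlap (38.5%, against 4.1% of all genes) and 0 higher. Among the controls 1 of the 13 was lower, Nr3c2, at -0.49, against 4.98% of all genes there. The 5 were Nr3c1 and Sgk1, described above, with Scnn1a, Atp1b2 and Scn7a, and the list's median was -0.12 against -0.10 in the control arm. Scnn1a, the alpha subunit of the epithelial sodium channel, stood at 9.80, 11.02 and 10.25 early and 9.18, 9.66 and 9.44 late, a difference of -0.93 ± 0.33. It was highest on the 1 h array, the one with lung transcripts, and lung epithelium is known to carry this channel; its part there was not tested.

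Atp1b2, a beta subunit of the sodium pump, stood at 11.13, 11.49 and 11.38 early and 10.54, 10.41 and 10.84 late. Its groups did not overlap, the difference was -0.74 ± 0.20, and the controls had 0.12 ± 0.29. The other Atp1b2 probe set had -0.31 with overlap after aldosterone, and -0.47 in the controls. Scn7a, a sodium-sensing channel, had -0.65 ± 0.29 with levels of 11.46 at 2 h and 11.36 at 3 h almost touching. Its other probe sets had -0.23 and 0.04, with overlap. Without the 1 h array, 5 of the 13 genes were lower with no overlap (38.5%), against 7.65% of all genes when that array is left out. In that setting 1 was higher (7.69%, against 7.1%).

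Among zinc-binding and zinc transport genes, the metallothionein Mt2 had the widest difference. Metallothioneins bind zinc and copper, and in mouse they respond to glucocorticoids, metals and inflammation. Mt2 stood at 12.29, 13.67 and 15.13 at 0.5, 1 and 2 h and at 14.83, 15.89 and 15.92 at 3, 4 and 5 h. The early arrays were spread widely and the 2 h array lay above the 3 h array, so that the groups overlapped, with a difference of 1.85 ± 0.62. The control arm had 2.21 ± 0.48 with no overlap, from 12.19 at 0.5 h to 15.84 at 4 h. Mt1 had 0.79 ± 0.33, while its second probe set had -0.98. The same-day differences of the first probe set were 0.94, 0.76 and 0.67, and with the scan day as a block the standard error was 0.08 (limma, adjusted p = 0.0925), so it was not called. All 8 tested genes of the list had a positive difference. Separate groups were found for 0, against 3.81% of all genes higher and 4.1% lower. Of the 8, 5 were higher in all 3 same-day pairs, against 13.2% of all genes. The median was 0.16.

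The bases before the Mt2 start site are shown because metal response elements there are known to drive the gene. The window of 250 bases before the RefSeq start site, on GRCm38.p6 at chr8:94172368-94172617 on the plus strand, reads 5′ to 3′ with matches to the core TGCNCNC, on either strand, in capitals.
Mt2: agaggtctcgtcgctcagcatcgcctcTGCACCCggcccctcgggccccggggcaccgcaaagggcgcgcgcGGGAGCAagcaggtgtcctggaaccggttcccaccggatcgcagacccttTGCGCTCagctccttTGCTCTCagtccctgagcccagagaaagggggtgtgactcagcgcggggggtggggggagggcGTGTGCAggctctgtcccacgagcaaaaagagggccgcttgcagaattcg
The window held 5 matches. At least 1 match was held by 44.4% of the 32851 mouse promoters searched the same way and by 4 of the 6 genes of the zinc list with a promoter, so the letters alone are common. The steroid receptor half-site TGTTCT had no match in this window and was held by 16.1% of all promoters. It was held by 4 of 33 corticosteroid targets with a promoter, or 12.1%.

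Of 15 tested acute phase genes, 4 were higher with no overlap (26.7%, against 3.81% of all genes) and 0 lower. The median difference was 0.41, against 0.54 in the control arm, where 7 were higher (against 8.23% of all genes there). Serpina3n, a secreted protease inhibitor, stood at 8.14, 10.10 and 11.29 early and 11.64, 12.02 and 12.29 late. The early levels spanned most of the range and the late ones lay close together, with a difference of 2.14 ± 0.66, or 4.42-fold. The 0.5 h level lay under 9.44, the median of all normalised values. The difference in the control arm was 1.60 ± 0.45.

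Saa3, serum amyloid A3, stood at 9.58, 9.24 and 10.43 early and 10.56, 11.73 and 11.28 late, and at 12.12 at 12 h. The 2 and 3 h arrays almost touched, and the difference was 1.44 ± 0.38. Timp1, an inhibitor of matrix metalloproteinases, had 0.67 ± 0.20 and Lrg1, a secreted glycoprotein, 0.54 ± 0.19. Lcn2, lipocalin 2, which binds bacterial siderophores, stood at 9.16, 11.36 and 11.10 early and 11.09, 12.12 and 11.88 late. Its groups overlapped, with a difference of 1.16 ± 0.54. With the Gapdh ratio as a covariate Lcn2 had 1.73 ± 0.17 and passed the test (limma, adjusted p = 0.043). S100a10, a partner of annexin A2, also passed, at 1.70 ± 0.18 (limma, adjusted p = 0.043). The main fit called neither. Among the early arrays both the ratio and Lcn2 were low at 0.5 h and high at 1 and 2 h. Ratio and hour cannot be told apart there.

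Interferon response genes had positive differences in most cases. Of 31 tested, 27 had a positive difference, 5 were higher with no overlap (16.1%, against 3.81% of all genes) and 0 lower. The late array was higher in all 3 same-day pairs for 16 of the 31, against 13.2% of all genes. In the control arm 18 of the 31 were higher with no overlap, against 8.23% of all genes there. The median difference was 0.43 in the aldosterone arm and 0.58 in the control arm. The median by same-day pair was 0.02 for 3 h minus 0.5 h, 0.31 for 4 h minus 1 h and 0.64 for 5 h minus 2 h.

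Ifit3, an antiviral protein with tetratricopeptide repeats, stood at 11.06, 10.84 and 10.65 early and 11.16, 11.85 and 12.46 late, and at 12.68 at 12 h. The 3 h array exceeded the 0.5 h array by little and the 5 h array was highest, with a difference of 0.97 ± 0.31. The control level was already 12.12 at 3 h, and the difference was 1.34 ± 0.20. Irf7, the transcription factor that amplifies type I interferon, stood at 10.65, 10.57 and 10.60 early and 10.94, 11.23 and 11.81 late, a difference of 0.72 ± 0.24. The other 3 with separate groups were Oas1a, an activator of RNase L, at 0.58, Bst2, which tethers virus particles, at 0.50, and Ifi35 at 0.32; Bst2 and Ifi35 were named after their values were seen. Ifih1, the RNA sensor MDA5, had 0.71 ± 0.27 and Ifit1 0.75 ± 0.31, both with overlap.

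The promoters of Ifit3 and Ifit1 are shown because interferon-stimulated response elements there are known to bind the factors STAT and IRF. Both windows are the 250 bases before the RefSeq start site on GRCm38.p6, plus strand, Ifit3 at chr19:34583279-34583528 and Ifit1 at chr19:34640639-34640888. Capitals mark matches to the core GAAANNGAA on either strand and, in Ifit3, a single match to the metal core TGCNCNC close to the start.
Ifit3: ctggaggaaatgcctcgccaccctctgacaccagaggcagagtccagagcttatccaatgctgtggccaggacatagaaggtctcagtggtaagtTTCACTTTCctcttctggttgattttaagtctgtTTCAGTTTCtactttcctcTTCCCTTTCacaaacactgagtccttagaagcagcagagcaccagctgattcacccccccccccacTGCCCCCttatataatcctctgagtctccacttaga
Ifit1: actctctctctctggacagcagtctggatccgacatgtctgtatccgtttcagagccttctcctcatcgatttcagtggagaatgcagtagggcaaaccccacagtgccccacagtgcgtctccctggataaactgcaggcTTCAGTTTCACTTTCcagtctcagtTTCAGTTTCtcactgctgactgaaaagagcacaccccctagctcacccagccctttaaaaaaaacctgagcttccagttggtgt
Each window held 3 matches to GAAANNGAA, of which a pair in Ifit1 overlap. The Irf7 window held 0. The core was held by 7.13% of all promoters, by 10 of the 26 interferon response genes with a promoter and by 6 of the 7 interferon-induced GTPases with one. A match is a description of letters and does not show that a factor was bound in these hearts.

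All 9 tested interferon-induced GTPases, which guard cells against intracellular pathogens, had a positive difference, with a median of 0.60 against 0.74 in the control arm. Igtp stood at 11.50, 11.33 and 11.90 early and 12.25, 12.49 and 12.44 late, a difference of 0.81 ± 0.19. Its groups did not overlap, and in the control arm the 3 h array was highest at 13.62. Gbp6, a guanylate-binding protein, was the other gene with separate groups, at 0.67 ± 0.20 and 1.06 ± 0.28 on its 2 probe sets. These 2 genes made up 22.2% of the list, against 3.81% of all genes. Gbp2 stood at 10.95, 11.90 and 12.09 early and 11.58, 12.80 and 13.18 late. It had a difference of 0.88 ± 0.43 with overlap, against 1.90 ± 0.31 in the control arm, and the difference between the arms was not called. The MHC class I and immunoproteasome list had a median of 0.14. In it 0 of 16 genes had separate groups, against 3.81% of all genes higher and 4.1% lower.

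The immediate early genes, which are transcribed within minutes of a stimulus, were lower late than early more often than not. Of 32 tested, 6 were lower with no overlap (18.8%, against 4.1% of all genes) and 0 higher, and 12 were lower in all 3 same-day pairs, against 14.4% of all genes. The median was -0.22 in both arms, and -0.16 after aldosterone without the 1 h array. Without that array 8 were lower with no overlap (25%, against 7.65% of all genes) and 2 higher (6.25%, against 7.1%). Rhob, a small GTPase with a short-lived transcript, stood at 15.71, 15.63 and 15.93 early and 15.25, 15.25 and 15.18 late. All late arrays lay below the early ones, with a difference of -0.53 ± 0.11, and the control arm had -0.63 ± 0.16.

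Fos, a subunit of the AP-1 factor, stood at 11.76, 11.49 and 11.53 early and 10.75, 11.09 and 10.64 late, and at 10.24 at 12 h. Its groups were separate, with a difference of -0.77 ± 0.19, and the control arm had -0.26 ± 0.18 with overlap. Zfp36, which hastens the decay of cytokine messages, stood at 12.62, 13.17 and 13.50 early and 12.50, 12.38 and 12.42 late. The 2 h array was the highest in both Zfp36 and Egr1, a zinc finger factor with a difference of -0.95 ± 0.34 and overlapping groups. Klf2, an endothelial factor that answers to blood flow, had -0.54 ± 0.20. Of 27 tested cytokine and NF-κB genes, 2 were higher with no overlap (7.41%, against 3.81% of all genes) and 0 lower, with a median of -0.11. Nfkbia, an NF-κB inhibitor, was highest at 2 h, at 16.52, and had -0.82 ± 0.28 with overlap. Tnfaip3, another inhibitor, was also highest at 2 h, at 12.56, with -1.0 ± 0.46 and overlap, while its other probe set had 0.05.

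Of 21 tested clock genes, 3 were higher with no overlap (14.3%, against 3.81% of all genes) and 0 lower, with a median of 0.17 against 0.16 in the control arm. Dbp, a PAR-domain factor at the output of the clock, stood at 11.98, 10.92 and 11.44 early and 12.27, 12.32 and 12.14 late, and at 13.04 at 12 h. The 0.5 h array came close to the late ones, and the difference was 0.80 ± 0.26. Ciart, a repressor of the clock, had 0.91 ± 0.29, and Tef, a relative of Dbp, had 0.23. Nr1d1, the nuclear receptor REV-ERBα, had 0.70 ± 0.27 and Timeless 0.88 ± 0.32, both with overlap. The labels do not give the hour of the day at which an array's tissue was taken, so hours after aldosterone and hours of the day cannot be told apart.

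Of the 23 tested genes of FoxO signalling and muscle atrophy, 5 were higher with no overlap (21.7%, against 3.81% of all genes) and 1 lower (4.35%, against 4.1%), with a median of 0.07. Sesn1, a sestrin that restrains mTOR, stood at 13.34, 13.59 and 13.94 early and 14.02, 14.20 and 14.22 late. The levels of the early arrays approached the late ones by 2 h, and the difference was 0.52 ± 0.17. Foxo3, a FoxO factor, had 0.50 ± 0.18 and Bnip3, a mitophagy receptor, 0.34 ± 0.14. Of 15 genes of the amino acid stress response, 3 were higher with no overlap (20.0%, against 3.81% of all genes), or 6 without the 1 h array (40.0%, against 7.1%). Among the 3 were Chac1, which breaks down glutathione, at 0.59 ± 0.20, and Eif4ebp1, a translation repressor, at 0.38 ± 0.16. Of 23 genes of the unfolded protein response, 2 were higher (8.7%, against 3.81% of all genes). They were Herpud1 and Syvn1, a ubiquitin ligase of the endoplasmic reticulum, at 0.36 ± 0.16. Hsph1, a co-chaperone of Hsp70, was the only gene of 20 heat shock genes with separate groups (5%, against 3.81% of all genes), at 0.35 ± 0.15.

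Among markers of other cells, 5 of 19 macrophage markers were higher with no overlap (26.3%, against 3.81% of all genes) and 0 lower. In the controls 4 of the 19 were higher, against 8.23% of all genes there. The median was 0.28 after aldosterone and 0.05 in the controls, and the median over genes of the difference between the arms was 0.01. The mean marker level ranged from 11.26 to 11.49 over the early arrays and from 11.50 to 11.60 over the late ones. Ms4a6d, a membrane protein of macrophages, stood at 9.19, 9.20 and 10.35 early and 10.46, 10.95 and 11.34 late. The 2 and 3 h arrays were close, and the difference was 1.34 ± 0.37, against 1.29 ± 0.25 in the control arm. Fcgr3, an antibody receptor, had 0.37 ± 0.18 and C1qc, a complement component, 0.33 ± 0.16. Retnla, a marker of alternatively activated macrophages that fat also holds, had -0.89 ± 0.35 with overlap.

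Of 7 tested neutrophil markers 2 were lower with no overlap (28.6%, against 4.1% of all genes). The list's mean level was 10.18, 11.67 and 10.26 on the early arrays and 10.01, 10.21 and 10.02 on the late ones, so that only the 1 h array stood out. The median was -0.47 and, without the 1 h array, 0.01. S100a8, a calcium-binding protein of neutrophils, stood at 11.57, 13.98 and 11.54 early and 10.94, 11.37 and 10.91 late, highest at 1 h like the lung markers. Csf3r, the receptor of granulocyte colony-stimulating factor, was lower at 2 h as well, at 8.74, against 10.15 and 10.20 before and 8.31, 8.22 and 8.67 after. Its difference was -1.30 ± 0.45, and its 2 h and late levels lay under 9.44, the median of all normalised values. Lung markers had a median of -1.39, which was -3.09 for 4 h minus 1 h and -0.26 and -0.35 in the other pairs. White fat had a median of -0.45 and fibroblasts -0.10, and without the 1 h array both turned sign, to 0.22 and 0.01. Atrium had -0.30, or -0.12 without that array, and endothelium 0.08, or 0.06. None of the 12 atrial and 11 fat markers had separate groups, against 3.81% of all genes higher and 4.1% lower.

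Genes of the respiratory chain, the sarcomere and calcium cycling had medians near that of all genes. Of 47 tested nuclear genes of the respiratory chain 0 had separate groups, against 3.81% of all genes higher and 4.1% lower. Their median was 0.01, and single differences ran from -0.15 to 0.27. The 26 sarcomere genes had a median of 0.05 with 1 higher (3.85%, against 3.81% of all genes). The 14 calcium cycling genes had a median of -0.03 with 0 in separate groups, against 3.81% of all genes higher and 4.1% lower. Without the 1 h array 2 of the 14 were lower (14.3%, against 7.65% of all genes). The 24 genes of fatty acid oxidation had a median of 0.11, or -0.02 without the 1 h array. In that setting 3 were higher with no overlap (12.5%, against 7.1% of all genes). With all arrays 1 was lower (4.17%, against 4.1%), Cpt1a, the liver-type gate of fatty acid entry into mitochondria. Cpt1a stood at 12.49, 12.87 and 12.65 early and 11.94, 12.10 and 12.30 late. The lowest early array, at 0.5 h, lay above the highest late one, at 5 h, with a difference of -0.56 ± 0.17. Ankrd37, a hypoxia-induced ankyrin protein, had 1.12 ± 0.38 within 28 glycolysis and hypoxia genes, of which 3 were higher (10.7%, against 3.81% of all genes) and 2 lower (7.14%, against 4.1%). Ribosomal protein genes had a median of -0.01.

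For genes of growth and fibrosis the shares with separate groups were near those of all genes. Of 16 hypertrophy genes 1 was lower (6.25%, against 4.1% of all genes), Mef2c, a factor of muscle development, at -0.42 ± 0.15. Nppb, the natriuretic peptide released by stretched ventricle, stood at 15.95, 15.64 and 15.76 early and 14.87, 15.83 and 14.37 late. The 4 h array lay among the early ones, and the difference was -0.76 ± 0.31, against -0.97 ± 0.17 in the control arm. Of 36 matrix genes 2 were higher (5.56%, against 3.81%) and 1 lower (2.78%, against 4.1%), with a median of 0.00.

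**Figure D3:**
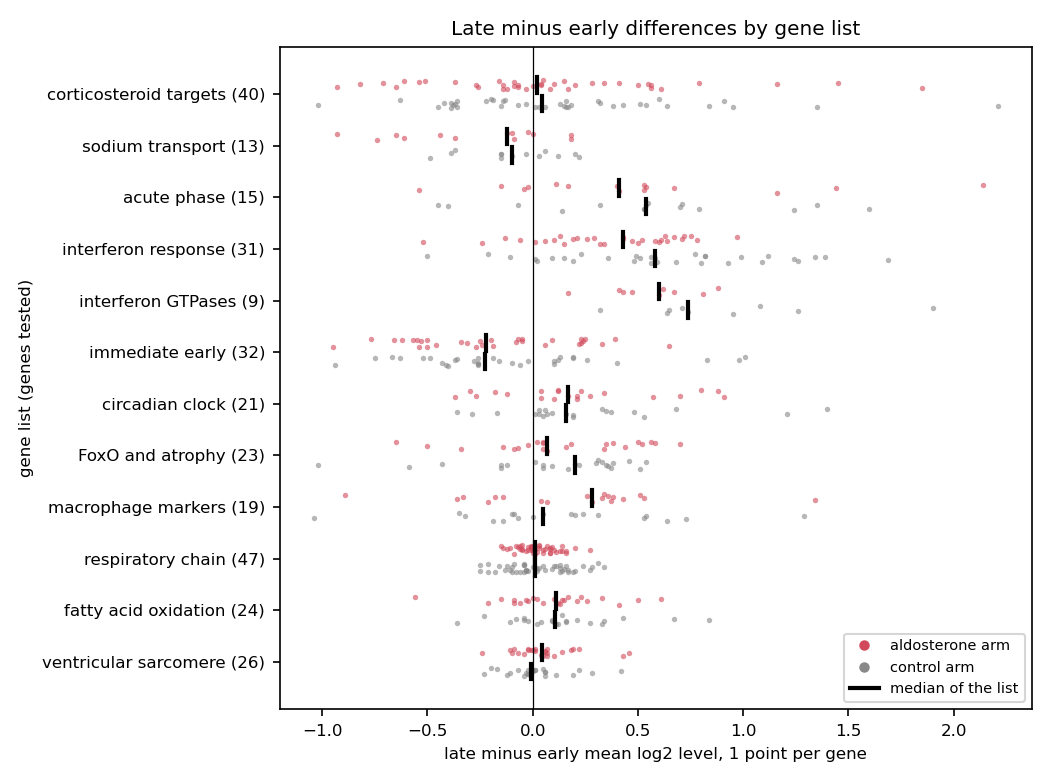
Late minus early difference of mean log2 level for each tested gene of 12 lists, the aldosterone arm in red and the control arm in grey, with the list's median as a black bar. The medians of the acute phase, interferon response and GTPase lists lie to the right of 0 in both arms (0.41, 0.43 and 0.60 after aldosterone), that of the immediate early list lies to the left (-0.22 in both), and the respiratory chain stays near 0.

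In the control arm, 0 of 21329 probe sets (0%) were called between the same late and early hours, with 1404 at an unadjusted p under 0.05, or 6.58%, and a smallest adjusted p of 0.35. The change after aldosterone was then set against the change in the controls in a single fit of the 12 arrays, which share no array between the arms. Of 21329 probe sets, 0 (0%) were called, 565 had an unadjusted p under 0.05, or 2.65%, and the smallest adjusted p was 0.998. The median standard error of this difference was 0.34, so that only for 53.6% of the probe sets did the 95% interval lie within 2-fold. For the other probe sets the interval reached beyond 2-fold. Estimates above 2-fold were not called either, among them those of Agfg2 and Rnf157 below.

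The smallest p for a larger change after aldosterone belonged to Rbck1, described above, with a difference between the arms of 1.28 ± 0.27. Apba3, an adaptor that binds the amyloid precursor protein, stood at 12.61, 11.87 and 11.77 early and 12.79, 12.81 and 12.71 late after aldosterone, and at 13.21, 12.94 and 13.21 early and 12.76, 11.81 and 12.36 late in the controls. The groups were separate in both arms and in opposite directions, and the difference between the arms was 1.5 ± 0.34. Agfg2, a nuclear export cofactor, had 2.03 ± 0.45, which came mainly from the controls at -1.63 ± 0.30 against 0.40 ± 0.32. Its late control levels, 8.75, 8.59 and 9.39, lay under 9.44, the median of all normalised values. The other Agfg2 probe set had a difference between the arms of 0.43. Banf2 had 1.56 ± 0.40 and Rusc2 0.95 ± 0.24.

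In the other direction, Yif1a, a protein of transport between the endoplasmic reticulum and the Golgi, stood at 12.04, 11.22 and 11.86 early and 10.97, 11.07 and 10.85 late after aldosterone. In the controls it stood at 11.47, 10.67 and 11.29 early and 11.98, 12.10 and 12.07 late. The groups were separate and opposite, and the difference between the arms was -1.65 ± 0.33, but its other 2 probe sets had 0.00 and 0.30. Rnf157, a ubiquitin ligase, had -1.95 ± 0.56. Its late levels after aldosterone, 9.12, 9.24 and 9.04, and its 0.5 h control level, 8.10, lay under 9.44. Pax5, a B cell factor, had -1.13 ± 0.31 and Aopep, an aminopeptidase, -0.67 ± 0.19. Safb, a scaffold attachment factor, had -0.84 ± 0.23, but its other probe set ran the opposite way, with 0.83. None of these 10 was called, with adjusted p = 0.998 in limma for each.

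**Figure D4:**
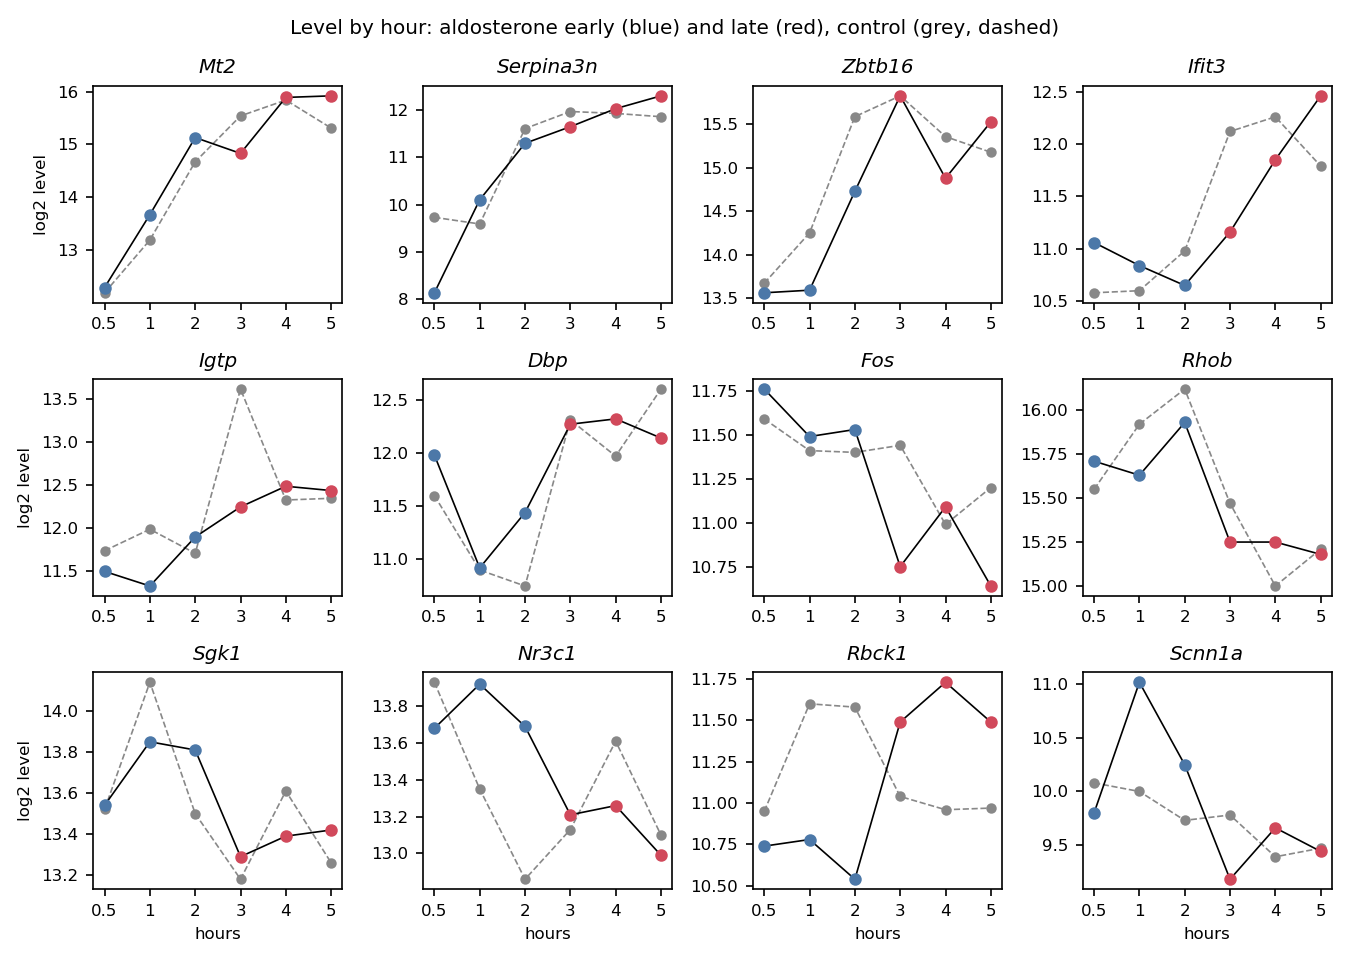
Log2 level by hour of 12 genes, aldosterone arrays as blue (early) and red (late) points joined by a black line, control arrays as grey points joined by a dashed line; each point is 1 array and each panel has its own vertical axis. Mt2, Serpina3n, Dbp and Rhob run the same way in both arms, while Rbck1 runs from 10.54 at 2 h to 11.73 at 4 h after aldosterone and from 11.58 to 10.96 in the controls.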

How the data were processed

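The submitters' processing notes name GCOS 1.2. The deposited signal values of the series table are linear intensity values, scaled by the authors to a trimmed mean of 1500 on every array; the experiment files of the authors gave chip lot, station and scan day. Probe sets were named through GEO's platform annotation, and 18347 of 21329 tested probe sets carried 1 symbol, 524 several and 2458 none. From there, 167.8 (the 25th percentile of all signals) was added, log2 was taken, and the 15 arrays were quantile-normalised. Probe sets with a mean of at least 9.44, the median, were tested with limma 3.58.1 in R 4.3.3 (variance trend, two-sided, Benjamini-Hochberg), after a check on simulated data. The number of arrays, 3 per group, limits the precision, and since hours took the place of replicates, p-values reflect how arrays of different hours vary.

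A gene in a list is given by its probe set with the highest mean. Named genes are those with no overlap, at least 1.5-fold and the smallest p, up to 15 per direction; up to 5 per list by moderated t; up to 5 per direction for the difference between arms; and corticosteroid targets and receptors. The members, lists and rules were chosen with earlier results of these data known. Deviations of same-day arrays in the aldosterone arm had r = 0.55, 0.34 and 0.17 over probe sets. The 2 h array had a higher value, 0.24, with the 4 h array of another day than with its own 5 h array. The remaining pairs across days ran from -0.44 to 0.06. In the control arm the same-day values were 0.17, 0.23 and -0.06. With the scan day as a replicate block 0 probe sets were called in the aldosterone arm. Promoter sequences are from RefSeq, GRCm38.p6, searched only before the start site.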

Additional observations from a re-analysis of the deposited data

How the results depend on the processing

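The count of probe sets called between late and early hours after aldosterone was 0 under 14 of 15 alternatives and 2 when the Gapdh ratio was a covariate. Leaving out 1 array gave 0 in each of 6 fits, with 388 to 1889 probe sets at an unadjusted p under 0.05. With the scan day as a replicate block the count was 0, with 1317 at an unadjusted p under 0.05. In the control arm the count was 0 to 5 when 1 array was left out and 0 otherwise. Without its 0.5 h array Alas2 was called. Without its 2 h array 5 were called, Serpina3n, Mt2, Nppb, Gbp2 and 1 unnamed, and without its 3 h array 3 probe sets of Hspa1b. The difference between the arms gave 0 under all 20 alternatives, and with time as a replicate block 1433 had an unadjusted p under 0.05.

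Of 89 late minus early differences followed through the alternatives, the sign turned for Tsc22d3 (0.03), Per1 (-0.24) and Nr3c2 (0.09) when the Gapdh ratio was a covariate. Without the 1 and 2 h arrays, an alternative chosen after seeing the data that leaves the early group with 1 array assumed to vary like the late ones, it turned for Tsc22d3 (0.23), Per1 (-0.70), Nr3c2 (0.36) and Tnfaip3 (0.08). Leaving out 1 array turned it for Klf9 (-0.20 to 0.30), Tsc22d3 (-0.16 to 0.05), Per1 (-0.19 to 0.60) and Nr3c2 (-0.36 to 0.02). The cause was not tested. Without the 1 h array, also chosen after seeing the data, 8 interferon response genes were higher with no overlap and 3 lower, against 7.1% and 7.65% of all genes. Without the 1 and 2 h arrays those shares were 33.5% and 23.1%, and the counts higher and lower were 15 and 3 of 31 interferon response genes, 13 and 1 of 15 acute phase genes, and 7 and 14 of 32 immediate early genes.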
